A study of Homo sapiens with 12 samples.

Results

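The 51 genes described here encode the machinery of mitosis: the kinase switch that starts it, the spindle, the kinetochore and its checkpoint, the 8 subunits of the condensin complexes, 5 subunits of cohesin, the cytokinesis factors and the transcription factors of the G2/M program. They were taken as a named list, sorted into 13 roles, and looked up by Ensembl gene ID in a table of 60671 genes. All 51 were found and passed the filter on low counts, which 18626 genes passed in total. RNA was sequenced from 12 samples, 4 replicates from each of 3 human leukemia lines grown in DMEM with fetal bovine serum to mid-log phase, with no drug named for the cells sequenced. K562 is the parental chronic myeloid leukemia line. K/VP.5 is a clone selected from K562 by exposure to etoposide, a drug that traps DNA topoisomerase II on cut DNA, and is resistant to it. K562/SSedit-2 is a K562 clone in which CRISPR/Cas9 and a repair template were used to inactivate the 5′ splice site of intron 19 of TOP2A, the gene of topoisomerase IIα, and by the study's account it still carries an unedited allele. Each derived line is 1 clone, so that what the drug or the edit did and what sets a clone apart from its parent cannot be told apart. The labels do not say that replicates were separate cultures, and the p-values below measure the spread between these samples, which may be technical.

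Mitosis starts when CDK1, bound to a B-type cyclin, is freed from the inhibitory phosphates that WEE1 and PKMYT1 add and CDC25 phosphatases remove. Condensin I and condensin II, rings built on the ATPases SMC2 and SMC4, then fold each chromosome into loops, working beside topoisomerase IIα, which passes DNA strands through each other. Cohesin, a ring of SMC1A, SMC3 and RAD21 with STAG1 or STAG2, holds sister chromatids together until separase, kept in check by securin and the spindle checkpoint, cuts RAD21. Transcription of most of these genes peaks in G2/M, through the DREAM and MYBL2-containing complexes that bind the CHR element and through NF-Y, which binds CCAAT boxes.

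Because the genes are known as a co-regulated program, their promoters were searched for both elements. A promoter was found for 41 of the 51 genes in RefSeq sequences of 300 bases, 250 before and 50 after the gene start (GRCh38.p14). A CHR element, TTTGAA or TTTAAA on either strand, stood in 30 of the 41 (73.2%), compared to 24.3% of all 27305 promoters. A CCAAT box, on either strand, stood in 25 (61.0%, compared to 35.7% of all promoters), and both elements stood in 19 (46.3%, compared to 9.49%). Shown are the called genes that changed most among those with such an element, and the main cyclins, leaving out stretches that reach far into a GENCODE gene with an earlier start. The lines give the CHR element nearest to the gene start, where it lies within 70 bases upstream, with 40 bases before it, and end at the last base before the start. Capitals mark that CHR element and any CCAAT box, which reads ATTGG on the opposite strand and overlaps the CHR element in MKI67. In PTTG1 the box reads the same on both strands. MKI67, PTTG1 and NCAPG were lower in K/VP.5 cells than in the parental line, ESPL1 was higher, and the B-type cyclins CCNB1 and CCNB2 passed the test in neither direction.
MKI67, chr10:128126424-128126492, minus strand: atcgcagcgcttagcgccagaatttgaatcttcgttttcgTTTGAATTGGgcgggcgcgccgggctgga
PTTG1, chr5:160421786-160421854, plus strand: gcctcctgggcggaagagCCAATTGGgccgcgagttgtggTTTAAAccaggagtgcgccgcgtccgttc
NCAPG, chr4:17810904-17810978, plus strand: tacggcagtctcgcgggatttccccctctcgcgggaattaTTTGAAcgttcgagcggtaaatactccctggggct
ESPL1, chr12:53268228-53268298, plus strand: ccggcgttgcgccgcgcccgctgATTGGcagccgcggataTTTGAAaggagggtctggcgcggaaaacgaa
CCNB1, chr5:69167080-69167149, plus strand: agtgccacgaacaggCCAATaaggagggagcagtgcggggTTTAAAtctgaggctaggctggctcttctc
CCNB2, chr15:59105077-59105145, plus strand: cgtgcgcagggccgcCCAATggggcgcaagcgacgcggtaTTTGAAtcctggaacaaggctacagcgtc
The element stood in genes of every outcome. Of the members with a promoter sequence, 10 of 11 that were lower in K/VP.5 cells held a CHR element, as did 5 of 8 that were higher and 15 of 22 that were not called. These shares are given without a test, and a match is a run of letters, not a measured binding site.

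TOP2A, the edited gene, was read at 488, 352.5, 380.0 and 388 CPM (TMM-scaled counts-per-million) in K562 replicates 1 to 4, at 281, 269, 282 and 268 CPM in K/VP.5 and at 203, 177, 179 and 208 CPM in K562/SSedit-2 cells. The 3 lines did not overlap. Against K562, K/VP.5 had a log2 fold change of -0.55 ± 0.09 (standard error, SE) and K562/SSedit-2 of -1.07 ± 0.09 (edgeR quasi-likelihood test, Benjamini-Hochberg adjustment across the genes tested, adjusted p = 8.58e-05 and 1.05e-06). Total counts ranged from 28981722 to 43648830 per sample. All 8 erythroid and progenitor markers were detected in every line, among them GATA1 at 245 to 440.0 CPM over the 12 samples. The 8 together gave 3240.0 to 4190.0 CPM in K562, 2830.0 to 3140.0 CPM in K/VP.5 and 4510.0 to 4950.0 CPM in the edited clone. Of markers of other cell types, the 5 lymphoid genes summed to 25.5 to 53.2 CPM in K562 and 9.35 to 13.0 CPM in K/VP.5, mostly from CD3D, which reached 36.8 to 53.0 CPM in the edited clone, and MS4A1 had at most 2 counts in any sample. The 6 stromal and epithelial genes were led by EPCAM, at 156 to 196, 121 to 136 and 167 to 183 CPM in K562, K/VP.5 and the edited clone, and KRT5 had at most 1 count. COL1A1 and COL1A2, collagen genes of the same list, were higher in every K/VP.5 sample than in any K562 sample, COL1A1 at up to 26.7 CPM against 1.24 to 4.26 CPM and COL1A2 at 28.1 to 32.2 CPM against 3.19 to 6.72 CPM. Whether these differences bear on the mitosis genes was not tested. K562 replicate 1 stood apart from its line over all genes, with a chi-square over its degrees of freedom of 53.5 to 56.4 against the other 3 K562 samples, where the other 15 replicate pairs of the lines gave 4.82 to 19.5. The counts of members called in each comparison are therefore also given without it.

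In K/VP.5 cells compared to K562 the mitosis genes split, with 16 lower and 10 higher at an adjusted p under 0.1 (edgeR) and 25 not called. Of all 18626 genes tested, 26.1% were lower and 26.2% higher in this comparison, so that the share of members lower (16 of 51) was near the background and the share higher (10 of 51) under it. With upper-quartile scaling, 15 members were higher and 16 lower, where 31.0% and 22.5% of all genes were, so that the share higher was then near the background and the share lower (16 of 51) above it. The replicates of 22 members did not overlap between the lines, 15 of them lower in K/VP.5, compared to 43.0% of all genes. Leaving out K562 replicate 1 it was 29 members, 16 of them lower, compared to 50.6% of all genes. Past the 2-fold cutoff of the study there was 1 member, CENPE, where 15.6% of all genes passed it. The median log2 fold change of the members was -0.09, against 0.01 over all genes. It lay between -0.15 (without K562 replicate 4) and -0.05 (without K562 replicate 1) when single samples were left out, and was -0.03 with upper-quartile scaling, against 0.07 over all genes. Without K562 replicate 1, 14 members were lower and 12 higher, where 26.5% and 25.9% of all genes were. CDK1 and TTK were then no longer called (adjusted p = 0.14 and 0.103), and AURKA and BUB1 were called higher (0.0564 and 0.000518). In bulk RNA, fewer cells in mitosis and less of a transcript per cell cannot be told apart. Some alternative fit ended the call of CDK1, PLK1, TTK, NDC80, NCAPH or MYBL2, as given beside each, and the other 20 calls held in all fits run. The plot of log2 fold changes by role shows members of 1 complex called in opposite directions in K/VP.5 cells.

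**Figure D1:**
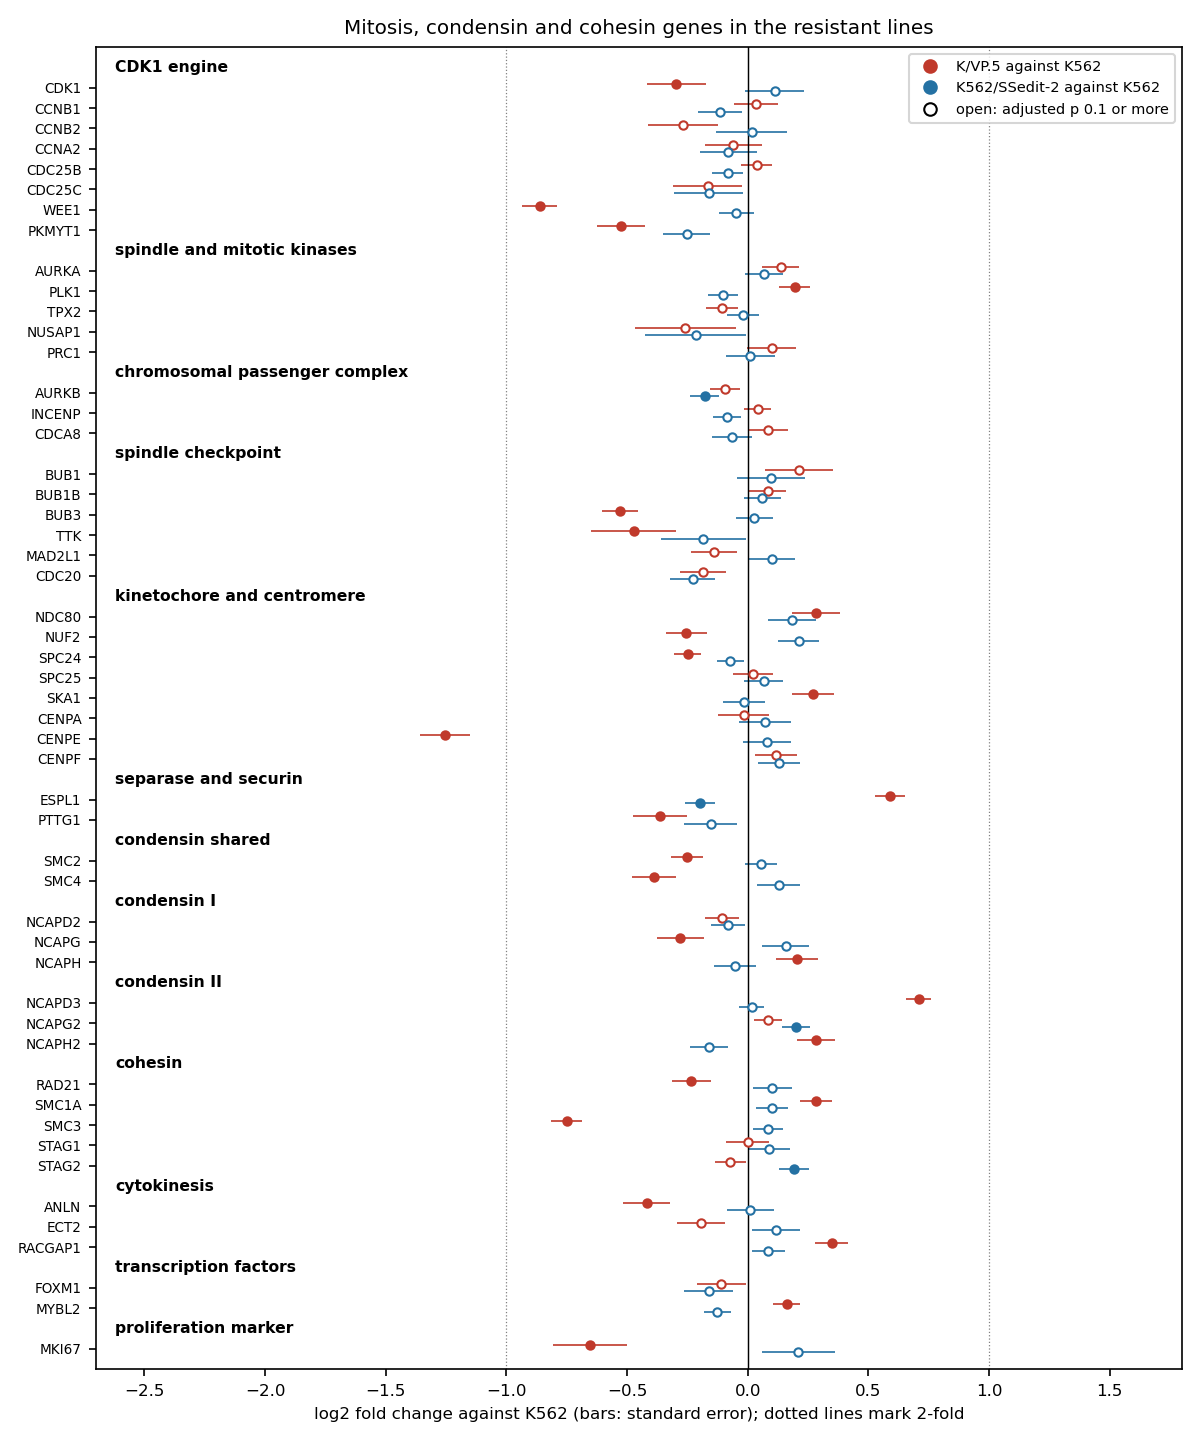
Log2 fold change of the 51 genes against K562, by role, in K/VP.5 (red) and K562/SSedit-2 cells (blue), with bars for the standard error of the edgeR fit on all 12 samples. Filled points have an adjusted p under 0.1 (26 in K/VP.5, 4 in K562/SSedit-2), and only CENPE in K/VP.5 lies beyond the dotted line at 2-fold.

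The genes that restrain entry into mitosis fell furthest among the CDK1 switch, of which 3 of 8 members were lower and none higher in K/VP.5 cells, where 26.1% of all genes were lower. WEE1, the nuclear kinase that phosphorylates and inhibits CDK1, was read at 131, 134, 121 and 108 CPM in K562, at 67.5, 67.99, 70.05 and 66.2 CPM in K/VP.5 and at 128, 121, 118 and 111 CPM in K562/SSedit-2 cells. Every K/VP.5 sample lay below all samples of the other lines, and the log2 fold change against K562 was -0.86 ± 0.07 (SE; edgeR adjusted p = 5.83e-08). PKMYT1, the membrane-bound kinase with the same target, was read at 116, 139, 121 and 120.1 CPM in K562 and 81.6, 76.9, 89.4 and 97.6 CPM in K/VP.5 cells. Its replicates did not overlap either, with a log2 fold change of -0.53 ± 0.10 (adjusted p = 0.000316). CDK1 itself was read at 115, 74.97, 73.2 and 75.3 CPM in K562 and 73.7, 67.5, 71.9 and 62.7 CPM in K/VP.5 cells, where replicate 1 of K562 was far above the rest and the lines overlapped (log2 fold change -0.30 ± 0.12, adjusted p = 0.06). Without K562 replicate 1 the log2 fold change of CDK1 was -0.13 and not called (adjusted p = 0.14). It was not called either without K/VP.5 replicate 2 or 4, at -0.28 and -0.24 (adjusted p = 0.106 and 0.148). The cyclins and phosphatases of the switch passed in neither direction. The log2 fold changes of CCNB1, CCNB2, CCNA2, CDC25B and CDC25C ran from -0.27 to 0.04, with a 95% interval of -0.14 to 0.21 for CCNB1 and -0.09 to 0.16 for CDC25B. The range rested on K562 replicate 1, without which it ran from -0.05 in CCNB2 to 0.11 in CCNB1. Per length, CCNB1 was among the most abundant members, at 93.2 ± 12.7 RPKM (mean ± SD, n = 4) in K562, and CDC25C among the least, at 5.48 ± 1.55 RPKM. The ratio of CDC25B to WEE1 in RPKM was 1.19 ± 0.125 (SD, n = 4) in K562, 2.21 ± 0.0598 for K/VP.5 and 1.16 ± 0.0603 for the edited clone. The ratio of CCNB1 to CCNB2 was 4.11 ± 0.619, 4.91 ± 0.185 and 3.64 ± 0.291 in the same order.

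Of the spindle regulators and the chromosomal passenger complex, 1 of 8 members was called in K/VP.5 cells, where 26.2% of all genes were higher and 26.1% lower. Without K562 replicate 1 it was 2 of 8, with AURKA higher (0.17, edgeR adjusted p = 0.0564). PLK1, the polo-like kinase that drives centrosome maturation and spindle assembly, was read at 245, 219, 229.8 and 223 CPM in K562 and 257, 244, 269 and 279.6 CPM in K/VP.5 cells. The highest K562 sample lay just above the lowest K/VP.5 sample, and the log2 fold change was 0.19 ± 0.06 (SE; edgeR adjusted p = 0.0202). With no filter on low counts PLK1 was not called (0.17, adjusted p = 0.124). AURKA, the kinase at the spindle poles, and TPX2, the protein that activates it, had log2 fold changes of 0.14 and -0.11 and were not called. The passenger kinase AURKB and its partners INCENP and CDCA8 ranged from -0.09 to 0.08. NUSAP1 and PRC1, which bundle spindle microtubules, were read at a mean of 0.268 ± 0.0352 and 1.01 ± 0.0858 RPKM in K562, the lowest levels of the set. NUSAP1 shares 81.4% and PRC1 57.6% of its exon bases with a longer gene on the same strand in GENCODE 44, so their counts are uncertain.

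In the spindle checkpoint, which delays anaphase until every kinetochore is attached, 2 of 6 members fell in K/VP.5 cells and none rose, where 26.1% of all genes were lower. Without K562 replicate 1, 1 of the 6 was lower and 1, BUB1, higher. BUB3, the adaptor that docks the BUB1 kinase and BUBR1 on the kinetochore, was read at 302.5, 259, 255 and 237 CPM in K562, at 195, 172, 183 and 180.2 CPM in K/VP.5 and at 291, 255, 257 and 271 CPM in K562/SSedit-2 cells. K/VP.5 lay wholly below both other lines, with a log2 fold change against K562 of -0.53 ± 0.08 (SE; edgeR adjusted p = 2.38e-05). TTK, the kinase MPS1 that starts the checkpoint signal, was read at 55.1, 29.2, 29.3 and 31.9 CPM in K562 and 30.3, 25.99, 26.2 and 22.3 CPM in K/VP.5 cells. Its fall (-0.47 ± 0.18, adjusted p = 0.0386) rested on single samples, and it was -0.22 without K562 replicate 1 and -0.39 without K/VP.5 replicate 4, neither called (edgeR adjusted p = 0.103 and 0.106). BUB1, BUB1B, MAD2L1 and CDC20 ranged from -0.19 to 0.21 and were not called, though without K562 replicate 1 BUB1 was higher at 0.41 (edgeR adjusted p = 0.000518).

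The kinetochore held the largest change of the set. CENPE, the kinesin motor that carries chromosomes to the metaphase plate, was read at 82.9, 59.4, 74.5 and 81.9 CPM in K562, at 29.9, 31.7, 32.1 and 31.4 CPM in K/VP.5 and at 74.3, 70.1, 79.9 and 91.5 CPM in K562/SSedit-2 cells. The 4 K/VP.5 samples were all below the lowest sample of the other lines, and CENPE stood at 0.419 of its K562 level (log2 fold change -1.26 ± 0.10, SE; edgeR adjusted p = 4.15e-08). Of the NDC80 complex, the arm that grips the microtubule, 1 subunit was higher, 2 were lower and 1 was not called, beside 26.2% and 26.1% of all genes higher and lower. NDC80 itself NDC80 was read at 40.1, 34.2, 37.7 and 36.8 CPM in K562 and 43.1 to 48.0 CPM in K/VP.5 cells, and was higher with no overlap (0.28 ± 0.10, adjusted p = 0.0271), a call that ended without K562 replicate 2 (0.23, adjusted p = 0.102). Its partner NUF2 was read at 40.1, 33.2, 32.7 and 32.3 CPM in K562 and 30.1, 28.8, 31.2 and 25.8 CPM in K/VP.5 cells, and was lower with no overlap (-0.25 ± 0.09, adjusted p = 0.0225). SPC24 was lower as well (-0.25 ± 0.06, adjusted p = 0.00149), while its partner SPC25 was not called (0.02). SKA1, of the complex that follows shrinking microtubule ends, was read at 40.8, 30.8, 34.04 and 32.9 CPM in K562 and 42.4, 38.7, 44.3 and 41.8 CPM in K/VP.5 cells, with overlap at 1 K562 sample (0.27 ± 0.09, adjusted p = 0.0178). CENPA, the histone variant that marks the centromere, and CENPF had log2 fold changes of -0.02 and 0.12 and were not called.

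Separase and its inhibitor went opposite ways. ESPL1, the separase that cleaves cohesin at anaphase, was read at 137, 134, 138 and 131 CPM in K562, at 193, 199, 206.5 and 213 CPM in K/VP.5 and at 122, 114, 125 and 109 CPM in K562/SSedit-2 cells. The 3 lines did not overlap, with K/VP.5 highest and K562/SSedit-2 lowest, and the log2 fold change of K/VP.5 against K562 was 0.59 ± 0.06 (SE; edgeR adjusted p = 6.38e-07). PTTG1, the securin, whose promoter like that of ESPL1 holds both elements printed above, was read at 81.3, 60.00, 53.4 and 51.5 CPM in K562 and 48.8, 45.1, 49.8 and 47.7 CPM in K/VP.5 cells. The groups did not overlap, though K562 replicate 1 stood above the other K562 samples, and the log2 fold change was -0.36 ± 0.11 (adjusted p = 0.0132). Without that sample it was -0.22 (adjusted p = 0.00963).

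**Figure D2:**
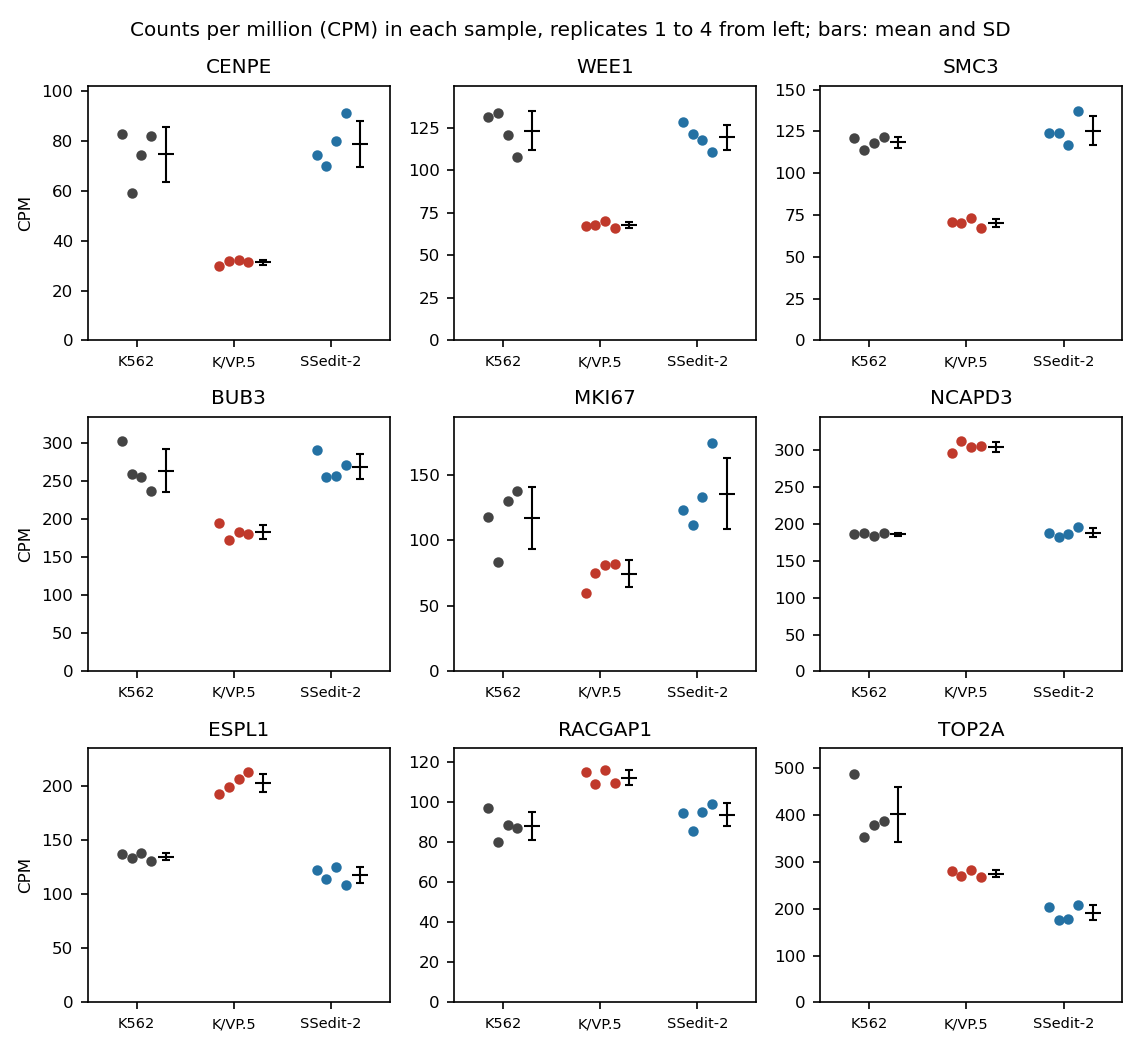
CPM in each of the 12 samples for 9 genes (axes start at 0), replicates 1 to 4 from left to right within a line, with the mean and SD beside them. CENPE, WEE1, SMC3, BUB3 and MKI67 lay lower in every K/VP.5 sample than in any sample of the other lines, NCAPD3, ESPL1 and RACGAP1 higher, and TOP2A was lowest in K562/SSedit-2 cells.

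Condensin, the partner of topoisomerase IIα in compacting chromosomes, had 3 of its 8 subunits higher, 3 lower and 2 not called in K/VP.5 cells, where 26.2% of all genes were higher and 26.1% lower. Both core ATPases were lower. SMC2 was read at 115, 100.1, 108 and 111 CPM in K562 and 94.4, 93.1, 92.3 and 85.1 CPM in K/VP.5 cells (-0.25 ± 0.07, SE; edgeR adjusted p = 0.00565), and SMC4 at 179.5, 139, 139 and 158.5 CPM and 123, 122, 118 and 108 CPM (-0.39 ± 0.09, adjusted p = 0.0021). Neither overlapped between the lines. Among the subunits particular to condensin II, the complex that acts from early prophase, NCAPD3 was read at 187, 188, 184 and 187 CPM in K562, at 296, 313, 304.5 and 306 CPM in K/VP.5 and at 188, 183, 186 and 196 CPM in K562/SSedit-2 cells. All 4 K/VP.5 samples lay above every sample of the other lines, at 1.64 times the K562 level (0.71 ± 0.05, adjusted p = 1.03e-08), the largest rise of the set. NCAPH2, the kleisin of condensin II, was read at 92.7, 107.5, 95.1 and 90.9 CPM in K562 and 114, 110.3, 116 and 129 CPM in K/VP.5 cells, higher with no overlap (0.28 ± 0.08, adjusted p = 0.00723), and NCAPG2 was not called (0.08).

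Of the subunits of condensin I, which reaches the chromosomes once the nuclear envelope has broken down, NCAPG was read at 129, 94.2, 94.4 and 105 CPM in K562 and 90.3, 87.9, 90.2 and 79.9 CPM in K/VP.5 cells, lower with no overlap (-0.28 ± 0.10, SE; edgeR adjusted p = 0.0266). The kleisin NCAPH was read at 93.6, 70.6, 71.8 and 72.8 CPM in K562 and 92.7, 86.2, 93.3 and 83.8 CPM in K/VP.5 cells, where K562 replicate 1 lay above every K/VP.5 sample (0.21 ± 0.09, adjusted p = 0.0639). Its rise was not called with no filter, nor without K562 replicate 2, 3 or 4, K/VP.5 replicate 1 or 3 or K562/SSedit-2 replicate 1 (0.15 to 0.19, adjusted p = 0.101 to 0.224). NCAPD2 was not called (-0.11). Per length, the level of the 3 subunits particular to condensin I over that of the 3 particular to condensin II was 1.34 ± 0.212 (SD, n = 4) in K562, 1.01 ± 0.0504 for K/VP.5 and 1.31 ± 0.0736 for the edited clone. The K/VP.5 ratios ran from 0.945 to 1.06 and those of K562 from 1.18 to 1.65, so they did not overlap, and the ratio was given no test. Exons shared with a gene on the opposite strand make up 33.7% of NCAPG, 19.2% of NCAPH2, 19% of SMC4 and 10.1% of NCAPD3. Among other members they make up 34.3% of PRC1, 24.7% of PKMYT1, 21.2% of STAG1, 15.9% of FOXM1 and 11.6% of PLK1. NCAPH2 also shares 19.2% with a non-coding gene on the same strand. The strand setting of the counting is not stated in the sources used here, so reads of these genes and their partners cannot be told apart.

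Of the 5 cohesin subunits 2 were lower and 1 higher in K/VP.5 cells, beside 26.1% and 26.2% of all genes. SMC3 was read at 121, 114, 118 and 121 CPM in K562, at 71.1, 70.2, 73.2 and 67.3 CPM in K/VP.5 and at 124, 124, 117 and 137 CPM in K562/SSedit-2 cells, and stood at 0.594 of the K562 level (-0.75 ± 0.06, SE; edgeR adjusted p = 4.85e-08). Its dimer partner SMC1A was read at 322, 325, 361 and 359.8 CPM in K562 and 420.3, 434, 414.5 and 397 CPM in K/VP.5 cells (0.28 ± 0.07, adjusted p = 0.00221). In both genes the lines did not overlap, SMC3 lying lower and SMC1A higher in K/VP.5. RAD21, the kleisin that separase cuts, was read at 253, 212, 206 and 215 CPM in K562 and 197, 194, 190.0 and 172 CPM in K/VP.5 cells, lower with no overlap (-0.23 ± 0.08, adjusted p = 0.0279). STAG1 and STAG2, the alternative subunits that decide which cohesin is formed, had log2 fold changes of 0.00 and -0.07, with 95% intervals of -0.17 to 0.17 and -0.19 to 0.05. The ratio of STAG2 to STAG1 in RPKM was 1.85 ± 0.187 (SD, n = 4) in K562, 1.75 ± 0.161 for K/VP.5 and 1.98 ± 0.145 for the edited clone, ranges that overlap. SMC1A was the most abundant cohesin transcript per length in each line, at 31.6 ± 1.99 RPKM in K562 and 38.5 ± 1.43 RPKM in K/VP.5 cells, and SMC3 was at 7.64 ± 0.220 and 4.54 ± 0.158 RPKM. These lengths count every annotated exon base, so that a gene with long, rarely used exons has its level understated.

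**Figure D3:**
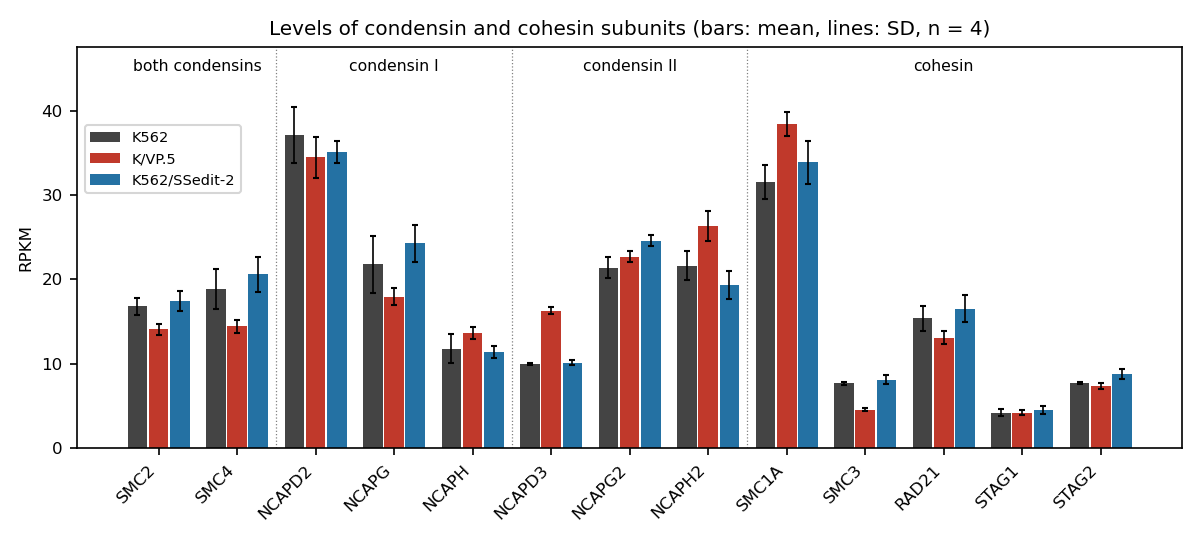
Level of each condensin and cohesin subunit in RPKM in K562 (grey), K/VP.5 (red) and K562/SSedit-2 cells (blue), as the mean (bar) and SD (line) of 4 replicates. Of the subunits called in K/VP.5 against K562, NCAPH, NCAPD3, NCAPH2 and SMC1A had their highest mean in K/VP.5 cells. SMC2, SMC4, NCAPG, SMC3 and RAD21 had their lowest mean there.

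Of the remaining members, ANLN, the anillin that scaffolds the contractile ring, was read at 72.4, 52.5, 53.9 and 58.6 CPM in K562 and 47.7, 42.6, 46.02 and 41.2 CPM in K/VP.5 cells, lower with no overlap (-0.42 ± 0.10, SE; edgeR adjusted p = 0.00216). RACGAP1, of the centralspindlin complex, was read at 97.2, 79.98, 88.8 and 86.9 CPM in K562 and 115, 109, 116 and 109.6 CPM in K/VP.5 cells, higher with no overlap (0.35 ± 0.07, adjusted p = 0.00056), and its binding partner ECT2 was not called (-0.19). MYBL2, the activator that starts the G2/M program, was slightly higher (0.16 ± 0.06, adjusted p = 0.0263), but not called with no filter or without K562 replicate 3 or 4 (0.14, 0.13 and 0.11, adjusted p = 0.264, 0.12 and 0.152). FOXM1, which follows it on the same promoters, was not called (-0.11). MKI67, the gene of the proliferation marker Ki-67, which coats mitotic chromosomes, was read at 117, 83.6, 129.8 and 137 CPM in K562, at 59.6, 74.8, 80.7 and 82.1 CPM in K/VP.5 and at 123, 112, 133 and 174 CPM in K562/SSedit-2 cells. The lowest K562 sample lay just above the highest K/VP.5 sample, and the log2 fold change was -0.66 ± 0.15 (adjusted p = 0.0022). For each gene given here as without overlap between K562 and K/VP.5, the two-sided exact permutation test of mean CPM gave p = 0.029, the smallest that 4 against 4 samples allow.

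The changes in K/VP.5 cells were also set beside those of the genes nearby on the chromosome. Each member was set beside the median log2 fold change of the other genes tested within 5 Mb, 11 to 264 genes per member. Of the 26 called members, 20 had the sign of their neighbours, 13 of the 16 lower and 7 of the 10 higher. Over all 9680 called genes with at least 11 neighbours the sign was shared by 65.4%. It was 19 of 26 members without K562 replicate 1, beside 64.8% of all such genes. The count takes the sign alone, and in 7 of the 20 (CDK1, NUF2, SKA1, ESPL1, NCAPH, ANLN and RACGAP1) the median was within 0.1 of 0. In the other 6 called members (PLK1, SPC24, TTK, PTTG1, SMC1A and MYBL2) the sign was opposite. Across the 51 members Pearson's r between a gene's log2 fold change and its neighbours' median was 0.65 and Spearman's rho 0.48, as a description over genes that are not independent replicates and come from the same 8 samples. In GRCh38, NCAPD3 (ENSG00000151503) lies at chr11:134150113-134225504 on the minus strand, BUB3 (ENSG00000154473) lies at chr10:123154402-123170467 on the plus strand and SMC3 (ENSG00000108055) lies at chr10:110567684-110606048 on the plus strand. NCAPD3 (0.71) lay among neighbours with a median of 1.01, of which 88.9% were called higher. BUB3 and SMC3, both on chromosome 10, lay among neighbours with medians of -0.65 and -0.53, and 70.8% and 66.7% of these were called lower. WEE1 (ENSG00000166483) lies at chr11:9573670-9593457 on the plus strand and CENPE (ENSG00000138778) lies at chr4:103105349-103198445 on the minus strand. These genes had neighbour medians of -0.56 and -0.42. Chromosome 10, singled out after its values were seen, held 4 members (CDK1, BUB3, SMC3 and MKI67), all lower, though the call of CDK1 rested on single samples, among 705 genes tested with a median of -0.23, of which 44.3% were called lower.

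Other members changed where their neighbours had medians near 0 or of the opposite sign. ESPL1, ANLN, TTK and PTTG1 changed by 0.59, -0.42, -0.47 and -0.36 where the neighbour medians were 0.06, -0.02, 0.06 and 0.08. PLK1 and SPC24 changed by 0.19 and -0.25 where the medians were -0.19 and 0.17. TTK and PTTG1 were each at -0.22 without K562 replicate 1, TTK not called (edgeR adjusted p = 0.103). STAG2, on the X chromosome, showed the opposite case, at -0.07 and not called where the neighbour median was -0.49. TOP2A, on chromosome 17, changed by -0.55 among neighbours with a median of -0.09. Copy number was not measured in these samples, and its part in these differences was not tested. In K562/SSedit-2 against K562, all 4 called members had the sign of their neighbours, as 67.9% of all called genes did, but each of the 4 medians was within 0.1 of 0. Leaving out K562 replicate 1, 11 of 12 called members had it, as 69.3% of all called genes did.

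**Figure D4:**
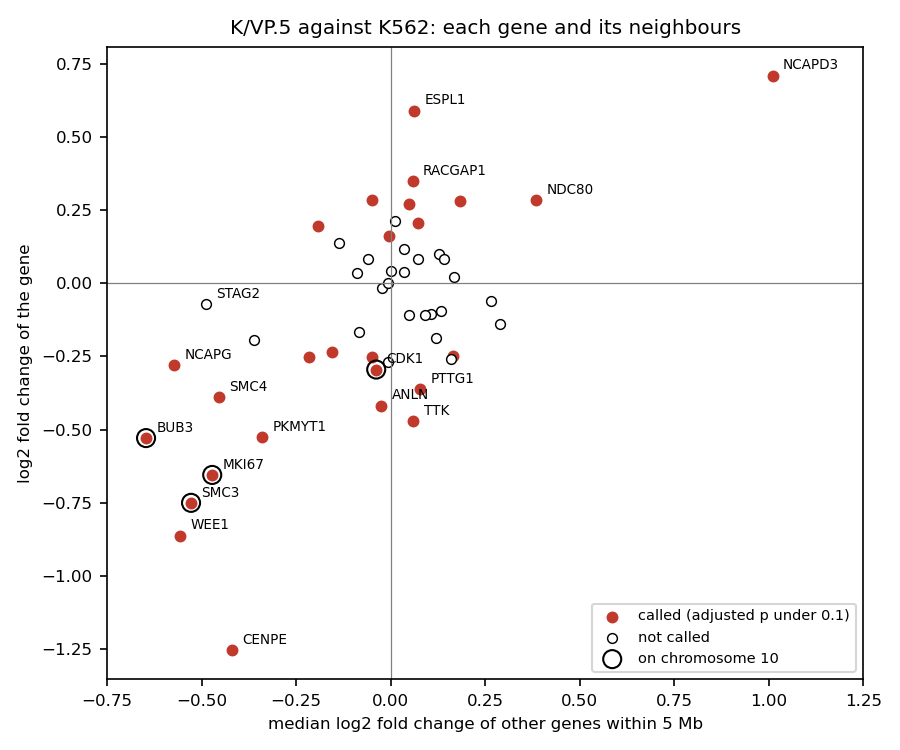
Log2 fold change of each of the 51 genes in K/VP.5 against K562 (vertical) by the median of the other genes tested within 5 Mb (horizontal), called genes filled and genes of chromosome 10 ringed. NCAPD3 at the upper right and BUB3, SMC3, MKI67 and WEE1 at the lower left lie where their neighbours moved too, and ESPL1 lies high above neighbours near 0.

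In K562/SSedit-2 cells compared to K562, which sets the edited clone against its parent, 2 of the 51 members were higher and 2 lower (edgeR, adjusted p under 0.1), where 4.86% of all genes tested were higher and 7.79% lower. None passed 2-fold, as 2.06% of all genes did, and 8 members had an unadjusted p under 0.05, as 22.7% of all genes did. The replicates of 6 members did not overlap, compared to 13.2% of all genes, and without K562 replicate 1 those of 11, compared to 23.8%. The median log2 fold change was 0.02, against -0.01 over all genes, and its sign depended on single samples, from -0.02 without K562 replicate 4 to 0.09 without K562 replicate 1. With RLE scaling the split moved to 2 higher and 1 lower, where the share of all genes was not counted. With upper-quartile scaling it moved to 3 higher and 0 lower, where 6.44% and 6.66% of all genes were. The whole-gene count of TOP2A stood at 0.477 of its K562 level here, its lowest in the 3 lines. The largest called change among members was that of NCAPG2, a condensin II subunit, read at 139, 154, 159 and 157 CPM in K562 and 174, 171.5, 172 and 181 CPM in K562/SSedit-2 cells, higher with no overlap (0.20 ± 0.06, SE; adjusted p = 0.0483). STAG2 was read at 125, 121.5, 122 and 123 CPM in K562 and 134.5, 136, 135 and 155 CPM in K562/SSedit-2 cells, higher with no overlap (0.19 ± 0.06, adjusted p = 0.0742). ESPL1, whose samples are given above, was lower (-0.20 ± 0.06, adjusted p = 0.0582), as was AURKB, at 48.3, 46.5, 48.6 and 47.6 CPM in K562 and 43.4, 41.1, 42.1 and 42.3 CPM in K562/SSedit-2 cells (-0.18 ± 0.06, adjusted p = 0.0882).

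None of these 4 calls held in every alternative fit, and leaving out single samples gave 0 to 9 members higher and 0 to 3 lower. Without K562 replicate 2, 3 or 4 there was 1 higher and 0 or 1 lower, and without K562/SSedit-2 replicate 4 there was none in either direction. Without any single K/VP.5 sample, or K562/SSedit-2 replicate 2 or 3, 0 or 1 were lower. Without K562 replicate 1, 9 members were higher and 3 lower, where 9.56% and 9.94% of all genes were. The 7 further members then higher were CDK1, CCNB2, BUB1, NUF2, SMC4, NCAPG and ECT2, at log2 fold changes of 0.21 to 0.31, and PKMYT1 was lower at -0.28. Same-numbered samples of these 2 lines tended to deviate together. A fit blocked on that number called 3 members higher and 3 lower, with NUF2 (edgeR adjusted p = 0.0872) and CDC20 (0.0857) in addition. The share of all genes called was not counted for this fit, nor for those without a single sample other than K562 replicate 1. For condensin and cohesin genes that moved in K/VP.5 cells, the 95% interval of the log2 fold change in K562/SSedit-2 cells was -0.09 to 0.12 for NCAPD3, -0.03 to 0.35 for NCAPG, -0.22 to 0.12 for NCAPH, -0.08 to 0.19 for SMC2, -0.05 to 0.31 for SMC4, -0.04 to 0.20 for SMC3, -0.03 to 0.23 for SMC1A and -0.06 to 0.26 for RAD21. For NCAPH2 it was -0.32 to -0.01, below 0 though the gene was not called (edgeR adjusted p = 0.235). For CENPE and WEE1 it was -0.12 to 0.28 and -0.19 to 0.09.

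In K562/SSedit-2 cells compared to K/VP.5, which sets both derived lines against each other and shares its samples with the comparisons above, 17 members were higher and 10 lower (edgeR, adjusted p under 0.1). Of all genes tested, 26.2% were higher and 27.8% lower. CENPE was the only member past 2-fold, which 15.8% of all genes passed, and 27 members did not overlap, compared to 47.4% of all genes. Without K562 replicate 1, which enters this comparison only through the shared scaling, estimate of spread and filter, 22 were higher and 9 lower, where 30.2% and 28.8% of all genes were. The members highest in K562/SSedit-2 over K/VP.5 cells were CENPE (1.34 ± 0.10, adjusted p = 1.93e-08), MKI67 (0.87 ± 0.15, adjusted p = 0.000192), SMC3 (0.83 ± 0.06, adjusted p = 1.34e-08) and WEE1 (0.82 ± 0.07, adjusted p = 1.09e-07). BUB3, SMC4, NUF2 and NCAPG followed at 0.56, 0.52, 0.47 and 0.44. The lowest were ESPL1 (-0.79 ± 0.06, adjusted p = 2.01e-08) and NCAPD3 (-0.69 ± 0.05, adjusted p = 1.32e-08), followed by NCAPH2 at -0.44 and by PLK1, SKA1, MYBL2, RACGAP1 and NCAPH at -0.30 to -0.26. Of condensin, SMC2, SMC4 and NCAPG were higher and NCAPH, NCAPD3 and NCAPH2 lower, and of cohesin SMC3, RAD21 and STAG2 were higher and SMC1A lower. The whole-gene count of TOP2A was lower in K562/SSedit-2 (-0.52 ± 0.09, edgeR adjusted p = 0.000132), which does not rank the 2 lines by full-length message.

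The members of 1 sample tended to lie on the same side of their line's mean. In K562 replicate 1, 42 of 51 lay above it, as did 42 in K/VP.5 replicate 3, and 42 lay below it in K562/SSedit-2 replicate 2. The median deviation of the 51 genes from the mean of their line was 0.15 on the log2 scale in K562 replicate 1, where over all genes it was 0.023. In the other 11 samples it lay between -0.07 and 0.055. CDK1, CCNB2, BUB1, TTK and FOXM1, for example, were each highest in K562 replicate 1, by margins larger than the spread of the other 3 K562 samples. TTK varied most in K562, with an SD of 0.43 log2 units over 4 replicates, and MKI67 most in K/VP.5 (0.21) and K562/SSedit-2 (0.27). The median SD of the members was 0.13 in K562, 0.076 for K/VP.5 and 0.10 for the edited clone, and that of 4879 genes of like level was 0.13, 0.079 and 0.099.

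**Figure D5:**
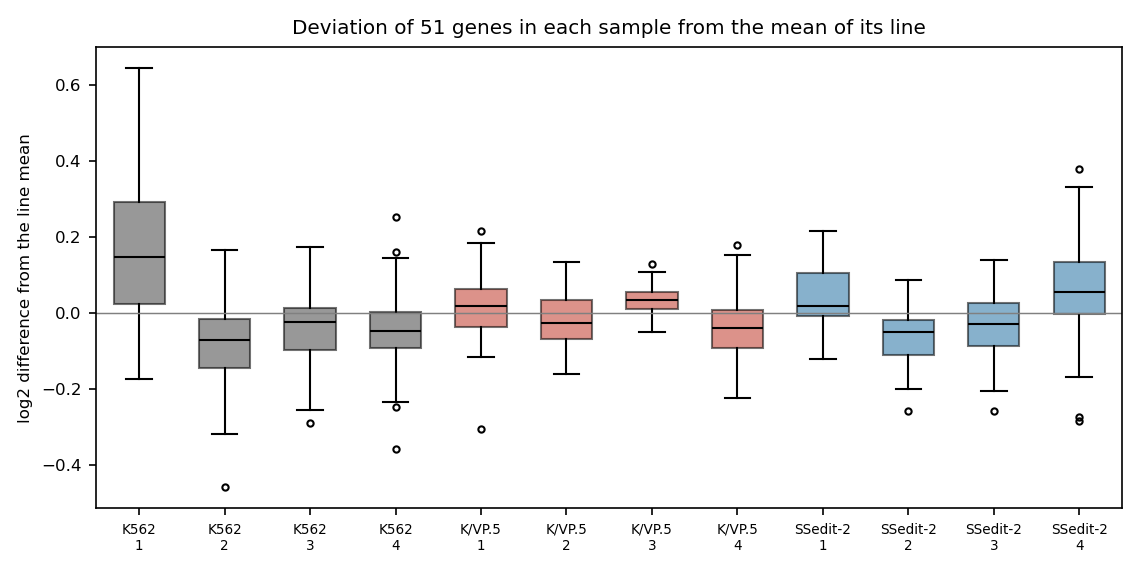
Deviation of each of the 51 genes from the mean of its line, in log2 CPM, for each of the 12 samples (box: quartiles, line: median, whiskers: the farthest values within 1.5 box lengths, points: genes beyond). The box of K562 replicate 1 lies highest, with a median of 0.15, and the other medians lie between -0.07 and 0.055.

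A further 124 genes of mitosis, from lists of condensin partners, cohesin regulators, the anaphase-promoting complex, other kinetochore and spindle proteins and the DREAM complexes, were counted in the same way, with 123 tested. In K/VP.5 cells compared to K562, 33 were higher and 38 lower (edgeR, adjusted p under 0.1), beside 26.2% and 26.1% of all genes. All 124 were tested without K562 replicate 1, with 36 higher and 39 lower, beside 25.9% and 26.5%. Furthest down were PPP1CA (-0.99), a catalytic subunit of protein phosphatase 1, NEK7 (-0.84), a spindle kinase, and ESCO1 (-0.81), which acetylates SMC3. Furthest up were MYBL1 (1.18), a relative of MYBL2, STAG3 (0.97), a cohesin subunit of meiosis, and MAD1L1 (0.94), which recruits MAD2L1 to kinetochores. Those 3 were rare transcripts, at means of 0.780, 1.13 and 1.65 CPM in K562. Between K562/SSedit-2 and K562, 4 were higher and 2 lower, beside 4.86% and 7.79% of all genes, but without K562 replicate 1 it was 18 and 4, beside 9.56% and 9.94%. The 2 lower with all samples were TOP2A and FZR1 (-0.39 ± 0.08, adjusted p = 0.00676), an activator of the anaphase-promoting complex, and the highest was CENPL (0.45 ± 0.07, adjusted p = 0.00104), of the constitutive centromere, with CENPK and ZWILCH at 0.35 and 0.27. Over K/VP.5 levels, 43 were higher and 31 lower in K562/SSedit-2 (26.2% and 27.8% of all genes), or 55 and 32 without K562 replicate 1 (30.2% and 28.8%), from -1.11 in MYBL1 to 0.95 in NEK7.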

How the data were processed

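RNA-seq counts of 12 samples were used, 4 per line, grouped by the sample titles. The authors mapped paired-end reads to GRCh38 with HISAT2 and deposited the raw counts that featureCounts gave for each gene, which are whole numbers and were not normalized. Annotation release, strand setting and the handling of reads that map to several genes are not given in the sources used here. Of 60671 gene IDs, 60401 were found in GENCODE 44, which gave symbols, exon lengths and neighbours.

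The members, their roles and the other lists were chosen with earlier results of these data known. Genes with enough counts by edgeR's filterByExpr (minimum count 10) were kept, TMM factors (0.948 to 1.035) were computed, and all 12 samples were fitted by line with edgeR 4.0.16 (glmQLFit and glmQLFTest, R 4.3.3). A gene was called at a Benjamini-Hochberg adjusted p under 0.1 over all genes tested, and counted also at 2-fold. SE is the absolute log2 fold change over the square root of F. The 95% intervals are 1.96 SE, an approximation somewhat narrower than the F test implies. CPM used TMM-scaled library sizes, in which 3 counts are worth 0.0691 to 0.102 CPM, and RPKM divided it by the length of all exons. Named in full are, per comparison, up to 8 called members in each direction by log2 fold change, members past 2-fold, TOP2A and the condensin and cohesin subunits, and of the other lists up to 3 genes in each direction.

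Replicates were not duplicates: in 18 pairs of the same line, chi-square over its degrees of freedom was 4.82 to 56.4, highest in the 3 pairs with K562 replicate 1. The replicate numbers come from the sample titles. Across genes, how far same-numbered samples lay from the mean of their line correlated at 0.135 to 0.292 in K562/SSedit-2 and K562. This was over 0.1 in all 4 pairs, but unlike-numbered pairs reached 0.128, close to the lowest of these. The numbers were taken to pair the samples on this limited ground. The main fit, its SE and its p-values left the pairing out, and only the replicate block used it. On simulated counts of K/VP.5 against K562 (18190 genes) the fit recovered 73 of 100 genes changed 1.5-fold and 97 of 100 changed 2-fold, and called 22 unchanged genes. Alternatives were RLE and upper-quartile scaling, DESeq2 1.42.0, limma voom 3.58.1 (the study's tool), other filters, 2 lines only, a replicate block, leaving out each sample and an adjusted p under 0.05. Figures were drawn in Python 3.11.15 with matplotlib 3.10.9.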

Additional observations from a re-analysis of the deposited data

Results flagged for a closer look

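Samples that stood apart from the other 3 of their line were looked for in every member, TOP2A and 4 subunit ratios, in 168 groups of 4, by Dixon's test at its 95% critical value. There were 9 such samples where chance alone gives about 1 in 20 groups (8.4), and 8 of the 9 were the same sample, K562 replicate 1, each time high. There CDK1 was at 115.1 CPM, CCNB2 at 93.74, BUB1 at 244.2, TTK at 55.12, MAD2L1 at 105.0, NUF2 at 40.11, NCAPD2 at 272.7 and NCAPH at 93.63 CPM. The highest of the other 3 K562 samples was at 75.3 CPM for CDK1, 56.9 for CCNB2, 153.5 for BUB1 and 31.9 for TTK. In K562/SSedit-2 cells STAG2 stood apart in replicate 4, at 154.8 CPM, where the others were at 134.5 to 136.1 CPM, and without that sample its rise against K562 was 0.15 and not called (edgeR adjusted p = 0.172).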

How the results depend on the processing

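In K/VP.5 cells compared to K562, 20 of the 26 called members were called in every fit, the others being CDK1, PLK1, TTK, NDC80, NCAPH and MYBL2, and in the edited clone compared to K/VP.5, 23 of 27. In K562/SSedit-2 cells compared to K562, none of the 4 was called in every fit (8 members at an unadjusted p under 0.05 in edgeR, 3 higher and 2 lower called by DESeq2, 2 and 2 by limma voom). No called direction reversed. In that comparison the members higher were 0 with no filter, 0 with only the 2 lines fitted and 1 at an adjusted p under 0.05, and those lower were 1 with RLE size factors, 0 with upper-quartile scaling (3 were higher there), 0 with only the 2 lines and 0 at an adjusted p under 0.05. The cause was not tested. Counts without K562 replicate 1 of the other mitosis genes, of members that did not overlap and of members with the sign of their neighbours were chosen after seeing the data. Leaving out single samples gave 0 to 9 higher and 0 to 3 lower in K562/SSedit-2 cells compared to K562, 8 to 12 and 14 to 20 in K/VP.5 cells compared to K562, then 16 to 22 and 8 to 11 in the edited clone compared to K/VP.5. In K562/SSedit-2 cells compared to K562, 9 were higher without K562 replicate 1, 1 without K562 replicate 2, 3 or 4 and 0 without K562/SSedit-2 replicate 4, and 0 or 1 were lower without K562 replicate 2, 3 or 4, without any single K/VP.5 sample, and without K562/SSedit-2 replicate 2, 3 or 4. The members' median log2 fold change ran from -0.15 to -0.05 in K/VP.5 cells compared to K562 and from -0.02 to 0.09 in K562/SSedit-2 cells compared to K562. In K/VP.5 cells compared to K562, upper-quartile scaling gave 15 higher and 16 lower. Replicate numbers did not pair the samples in the other comparisons (correlations of -0.00265 to 0.269 for K/VP.5 and K562, -0.0947 to 0.161 for K562/SSedit-2 and K/VP.5), and not every sample correlated best with its own number. The replicate block gave 12 higher and 20 lower in K/VP.5 cells compared to K562, then 20 and 12 in the edited clone compared to K/VP.5. It gave 3 and 3 in K562/SSedit-2 cells compared to K562, where it ended no call. The share of all genes called was counted only for the main fit, upper-quartile scaling against K562 and the fit without K562 replicate 1. Counts of members from the other fits therefore cannot be set beside a background. The simulated counts, at the depth of these samples, gave 73 of 100 genes changed 1.5-fold back, so smaller changes than that could be missed.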
